A study of Mus musculus with 8 samples.

Results

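Cholesterol synthesis, its uptake and transport, and the sensing of sterols were followed through 31 listed genes in mouse thymus lobes after spaceflight. The genes were chosen by name for their role in the pathway, but with earlier results of these data known. A gene was read from 1 probe set (the group of array probes that measures 1 transcript region), the one of highest mean over all arrays among those annotated to that gene alone. This gave 28 members of the 19938 genes measured. Acat2, Soat1 and Nr1h2 had no such probe set in the annotation used here and were not analysed here. The members fall into the mevalonate arm of synthesis (7 of 8 measured), the squalene and sterol arm (10 of 10), sterol sensing (4 of 4), uptake, transport and storage (3 of 4), and the liver X receptors (LXR) with cholesterol efflux (4 of 5).

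The arrays came from 8 mice of the C57BL/6NTac strain, 8 weeks old. The spaceflight group was 4 mice that spent 13 days on the shuttle mission STS-118, and the ground-control group was 4 mice of matching age and sex kept in the same kind of enclosure. Thymus lobes were taken when the mission ended, and no genetic change or drug is given for either group. The comparison asks which transcripts differ in the organ after the flight.

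Cholesterol is built from acetyl-CoA through mevalonate, isoprenoids, squalene and a series of sterols. The transcription factor SREBP2, encoded by Srebf2, switches on the enzymes of this route. Its escort Scap and the anchors Insig1 and Insig2 hold it in the endoplasmic reticulum while sterols are plentiful, and Insig1 is itself a target of SREBP. Excess sterol is instead read by the LXRs, which raise the exporters Abca1 and Abcg1 and the ubiquitin ligase Mylip, which removes lipoprotein receptors. In the thymus, dividing thymocytes need membrane cholesterol, and macrophages take up the cholesterol of the many thymocytes that die.

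Promoters of 4 members are shown because they hold the motifs by which these 2 sensing systems are usually recognised, or because the gene had the largest difference. Each is the 250 bases before the transcription start, 5′ to 3′, from the RefSeq promoter table of build GRCm38.p6. Capitals mark TCACNCCAC (the core of the sterol response element bound by SREBP), a match to the direct repeat bound by LXR, and CCAAT (the box bound by NF-Y, a usual partner of SREBP), on either strand.
Insig1 (chr5:28071162-28071411, plus strand): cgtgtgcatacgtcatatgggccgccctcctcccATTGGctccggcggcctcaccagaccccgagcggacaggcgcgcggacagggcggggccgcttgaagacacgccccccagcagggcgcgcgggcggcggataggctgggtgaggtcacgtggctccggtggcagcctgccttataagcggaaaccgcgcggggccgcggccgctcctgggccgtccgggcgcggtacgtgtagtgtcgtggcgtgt
Idi1 (chr13:8885356-8885605, plus strand): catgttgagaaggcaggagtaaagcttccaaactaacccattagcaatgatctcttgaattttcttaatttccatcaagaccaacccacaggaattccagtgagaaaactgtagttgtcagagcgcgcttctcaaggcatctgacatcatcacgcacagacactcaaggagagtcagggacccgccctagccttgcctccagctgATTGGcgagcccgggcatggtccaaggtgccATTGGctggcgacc
Hmgcs1 (chr13:119690101-119690350, plus strand): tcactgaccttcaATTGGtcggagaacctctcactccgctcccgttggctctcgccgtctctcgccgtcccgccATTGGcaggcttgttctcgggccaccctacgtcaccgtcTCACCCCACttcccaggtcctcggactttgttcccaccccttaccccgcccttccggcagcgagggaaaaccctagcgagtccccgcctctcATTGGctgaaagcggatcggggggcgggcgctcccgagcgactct
Abca1 (chr4:53159896-53160145, minus strand): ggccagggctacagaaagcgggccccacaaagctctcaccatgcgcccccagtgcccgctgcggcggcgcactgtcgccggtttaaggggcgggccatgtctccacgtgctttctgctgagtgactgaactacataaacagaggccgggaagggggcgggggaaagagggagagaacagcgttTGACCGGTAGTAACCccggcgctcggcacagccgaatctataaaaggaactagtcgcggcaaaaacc
A promoter was listed for 22 of the 28 measured members. In windows of 250 bases before to 50 after the start, read on both strands, Hmgcs1 was the single member with TCACNCCAC, with its first base at -137 from the start, against 1.44% of the 27025 genes in the table. The longer classical sterol response element was in 0 of the 22 members and in 0.0999% of all genes. CCAAT was in 19 of the 22 members, against 41.1% of all genes. These were 7 of the 7 with a promoter that were lower at an unadjusted p under 0.05 and 12 of the other 15. The box GGGCGG, bound by Sp1, was also in 19 of 22, again 7 of 7 and 12 of 15, against 38.2% of all genes. The LXR repeat was in Abca1 alone among the 22, against 0.818% of all genes. A match is a string of letters in this window and says nothing about binding in these mice.

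The sterol anchor Insig1 and several synthesis enzymes had lower values in the flight mice than in the ground mice. However, no member passed the adjusted threshold. Insig1 and 6 of the 17 measured enzymes did not overlap between the groups. The other enzymes, the sensors Srebf2 and Scap, the transport genes and the LXR genes did overlap. Whether the roles differ from each other was not tested. In whole lobes, fewer cells of a type and less RNA per cell cannot be told apart. The mean was lower in spaceflight for 25 of the 28 members (89.3%, against 53.5% of all genes tested). In the limma fit over all genes, 0 members were at an adjusted p under 0.05, a threshold that 16 of 19938 genes (0.0802%) passed, 13 of them lower (0.0652%). At an unadjusted limma p under 0.05, 9 members were lower (32.1%, against 7.38% of all genes tested) and 0 were higher (against 3.43%). These 9 were Insig1, Idi1, Hmgcs1, Cyp51, Sc5d, Nsdhl, Lss, Fdps and Abcg1. In 7 of the 28 (against 4.28% of all genes) every spaceflight array lay below every ground-control array, and in 0 every one lay above (against 1.73%).

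Genes of the same brightness as the members were also lower as a whole in the flight arrays. Among the 8589 genes whose mean level lay in the members' range (6.29 to 9.26 on the log2 scale), the median difference was -0.12, 12.7% were lower at an unadjusted p under 0.05, and in 6.87% every flight array lay below every ground array. The median difference over the 28 members was -0.17, and over all genes tested it was -0.018. The log2 values of the genes spread less in spaceflight replicates 1 and 3 (interquartile range 2.22 in both) than in the other 6 arrays (2.55 to 2.84). Without both arrays the members' median was -0.12, and that of the genes in the same range of levels was -0.0036. In that fit of 2 against 4 arrays, 19 of 28 means were lower (against 53.4% of all genes), and 0 members were at an adjusted p under 0.05 (against 0.0802% of all genes, and 0.0401% lower). At an unadjusted p under 0.05, 6 were lower (21.4%, against 3.97% of all genes) and 2 were higher (against 3.49%). The thymus markers Cd8a and Rag1 of thymocytes (11.55 to 11.99 and 12.29 to 12.64) and Prss16 of cortical epithelium (10.76 to 11.45) were high in all 8 arrays. Cd3e of thymocytes stood at 9.55 to 10.15. Other markers checked were much dimmer. These were Ptcra of thymocytes (6.26 to 6.81), Foxn1 and Psmb11 of cortical epithelium (6.16 to 7.06 and 6.21 to 7.57) and Aire of medullary epithelium (6.57 to 6.92).

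**Figure D1:**
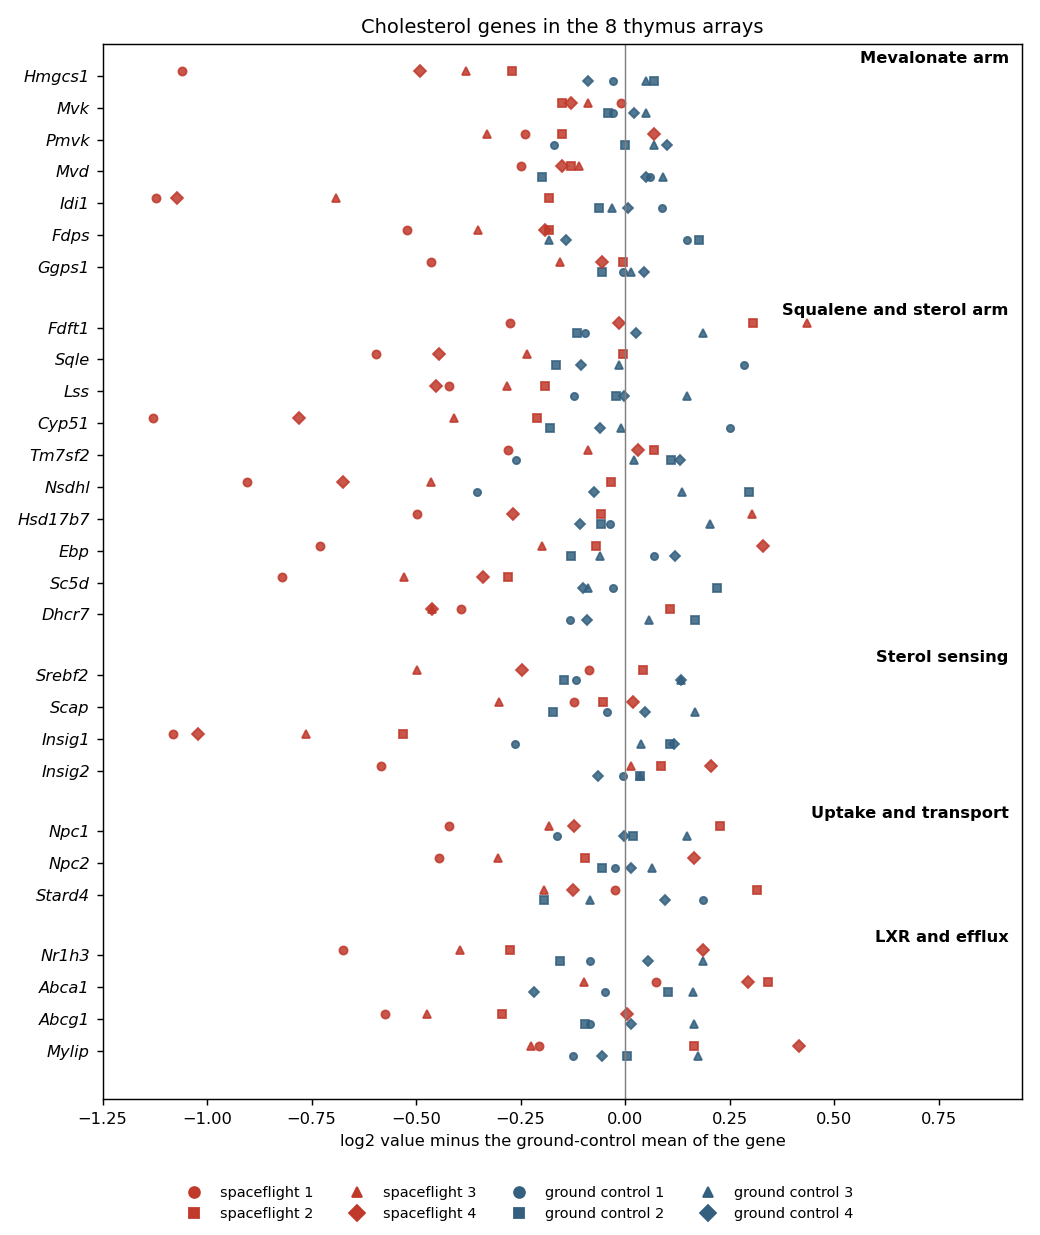
Each row is a measured member and each point a mouse, with spaceflight in red above ground control in blue, as log2 value minus that gene's ground-control mean. The red points of Insig1, Idi1, Hmgcs1, Cyp51, Sc5d and Lss all lie to the left of the blue ones. For Fdps the highest red and the lowest blue point share a position, as the plotted values are rounded. The groups overlap in the other 21 members.

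Insig1, the sterol-regulated anchor of the SREBP complex, had the largest difference of all members. Its log2 values were 8.06, 8.61, 8.38 and 8.12 in spaceflight replicates 1 to 4 and 8.88, 9.25, 9.18 and 9.26 in ground-control replicates 1 to 4. The highest flight array lay below the lowest ground array, and flight replicates 1 and 4 were the lowest. The mean went from 9.14 ± 0.18 to 8.29 ± 0.26 (SD, n = 4 each), 1.80-fold lower, a log2 difference of -0.85 ± 0.14 (SE, limma adjusted p = 0.0666). It did not pass the threshold with all arrays. Its adjusted p was 0.0392 without spaceflight replicate 2 and 0.0456 when genes with a mean under 6 were left out of the fit, and the other single-array omissions gave 0.0626 to 0.241. Without both spaceflight replicates 1 and 3 the difference was -0.78 (limma adjusted p = 0.187).

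Insig2, the paralog of Insig1, stood at 7.60, 8.27, 8.20 and 8.39 in flight and 8.18, 8.22, 8.22 and 8.12 on the ground. Flight replicate 1 was the lowest array, replicate 3 lay within the ground range and replicates 2 and 4 above it. The difference was -0.073 ± 0.16 (95% interval -0.42 to 0.27), and without flight replicate 1 it was 0.099. The log2 ratio of Insig1 to Insig2 within each array, a contrast chosen after the values were seen, is free of shifts common to an array. Insig1 was the brighter gene on the ground (mean 9.14 against 8.19). The ratio is therefore not free of the narrower spread of values in flight replicates 1 and 3. It was 0.46, 0.34, 0.18 and -0.27 in flight and 0.70, 1.03, 0.96 and 1.14 on the ground. The groups did not overlap, and the ratio differed by -0.78. It is a description with no test, since the pair was picked for its values.

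The other sensing genes differed by less. Srebf2, the transcription factor, stood at 9.01, 9.14, 8.60 and 8.85 in flight and 8.98, 8.95, 9.23 and 9.23 on the ground. Flight replicates 3 and 4 lay below the ground mice and replicates 1 and 2 within their range, and the difference was -0.19 ± 0.14 (95% interval -0.49 to 0.10). Scap, the escort of SREBP2, stood at 7.78, 7.85, 7.60 and 7.92 in flight and 7.86, 7.73, 8.07 and 7.95 on the ground. Here 3 of the 4 flight arrays lay within the ground range, and the difference was -0.12 ± 0.12 (95% interval -0.37 to 0.14). The intervals of both lie above the estimate for Insig1 (-0.85) and include 0.

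In the mevalonate arm the mean of each of the 7 measured genes was lower in flight, and 3 were lower at an unadjusted p under 0.05 (42.9%, against 7.38% of all genes). Idi1, the isomerase that makes the active isoprene unit dimethylallyl diphosphate, had the largest difference among enzymes. Its values were 7.34, 8.28, 7.77 and 7.39 in flight and 8.55, 8.40, 8.43 and 8.47 on the ground. The ground mice were tightly grouped (8.46 ± 0.07) and the flight mice were not (7.70 ± 0.43), with replicate 2 only just below the ground arrays. The log2 difference was -0.77 ± 0.18, or 1.70-fold lower (limma adjusted p = 0.189). The adjusted p was 0.0392 without flight replicate 2, and 0.188 or more without any other array. A second probe set annotated to Idi1 gave -0.87 ± 0.20, also without overlap.

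Hmgcs1, which condenses acetyl-CoA units into HMG-CoA, stood at 7.49, 8.28, 8.17 and 8.06 in flight and 8.52, 8.62, 8.60 and 8.46 on the ground. All 4 flight arrays were lower than every ground array, and replicate 1 was far below the rest. The difference was -0.55 ± 0.16 (limma adjusted p = 0.286), and it was -0.38 without flight replicate 1. Fdps, which makes farnesyl diphosphate, stood at 6.99, 7.33, 7.16 and 7.32 in flight and 7.66, 7.69, 7.33 and 7.37 on the ground. The groups were separate only beyond the second decimal, and the difference was -0.31 ± 0.13 (limma adjusted p = 0.423, exact two-sided permutation p = 0.0286). Its unadjusted p was under 0.05 in 4 of the 8 fits that left out 1 array.

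The kinases and the decarboxylase between Hmgcs1 and Idi1 differed little. Mevalonate kinase (Mvk), phosphomevalonate kinase (Pmvk) and the decarboxylase (Mvd) had differences of -0.096, -0.16 and -0.16. Ggps1, which leads to geranylgeranyl chains for protein anchoring and not to sterols, differed by -0.17 ± 0.12. Each of these 4 genes overlapped between the groups. Their 95% intervals reached no lower than -0.43, whereas the estimate for Idi1 was -0.77. The interval of Idi1 (-1.16 to -0.37) overlapped those of Pmvk, Mvd and Ggps1.

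**Figure D2:**
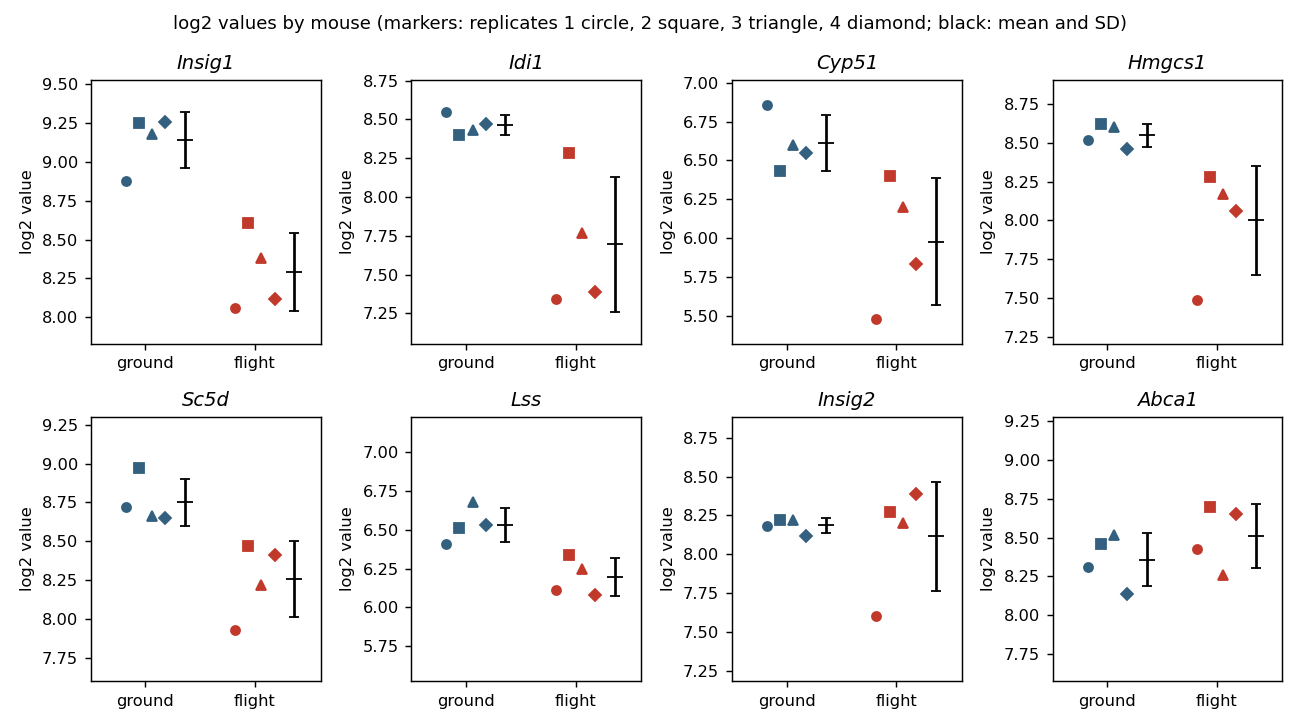
Log2 values of 8 members by mouse, with the mean and SD of each group in black; every vertical axis spans the same log2 range. Ground and flight do not overlap in Insig1, Idi1, Cyp51, Hmgcs1, Sc5d and Lss, whereas Insig2 and Abca1 overlap.

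In the squalene and sterol arm 9 of 10 means were lower in flight, and 4 genes were lower at an unadjusted p under 0.05 (against 7.38% of all genes). Cyp51, the lanosterol demethylase, stood at 5.48, 6.40, 6.20 and 5.83 in flight and 6.86, 6.43, 6.60 and 6.55 on the ground. Replicate 1 was lowest and replicate 2 almost reached the lowest ground array, and the difference was -0.64 ± 0.18, 1.56-fold lower (limma adjusted p = 0.289). Lss, which closes squalene epoxide into lanosterol, stood at 6.11, 6.34, 6.25 and 6.08 in flight and 6.41, 6.51, 6.68 and 6.53 on the ground. The flight arrays were lower without overlap and close together, and the difference was -0.33 ± 0.11 (limma adjusted p = 0.348).

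Sc5d, a late desaturase of the sterol ring, stood at 7.93, 8.47, 8.22 and 8.41 in flight and 8.72, 8.97, 8.66 and 8.65 on the ground. Again all flight arrays lay below, with a difference of -0.49 ± 0.14 (limma adjusted p = 0.283). Nsdhl, which acts in removing the methyl groups of lanosterol, stood at 6.58, 7.45, 7.02 and 6.81 in flight and 7.13, 7.78, 7.62 and 7.41 on the ground. Flight replicate 2 lay within the ground range, and the difference was -0.52 ± 0.19 (limma adjusted p = 0.393). Insig1, Idi1, Hmgcs1, Cyp51, Lss and Sc5d kept an unadjusted p under 0.05 in each of the 8 fits without 1 array, and Nsdhl in 6.

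The remaining sterol enzymes did not separate. Squalene epoxidase (Sqle) differed by -0.32 ± 0.15 and the last reductase of the route, Dhcr7, by -0.30 ± 0.14 (exact two-sided permutation p = 0.143 and 0.114), and flight replicate 2 was the highest flight array for both. Without that array both had an unadjusted limma p under 0.05, with differences of -0.42 and -0.44. The isomerase Ebp and the reductases Hsd17b7 and Tm7sf2 differed by -0.17, -0.13 and -0.068, and without spaceflight replicates 1 and 3 Ebp (0.13) and Tm7sf2 (0.051) were higher. Fdft1, the squalene synthase at the branch point into sterols, was the exception in sign, with a difference of 0.11 ± 0.15. Its second probe set gave -0.072 ± 0.16, so the probe sets disagreed in sign.

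Over both arms, 7 of 17 measured enzymes (41.2%) were lower at an unadjusted p under 0.05 (against 7.38% of all genes and 12.7% of those in the same range of levels). In 6 of 17 (35.3%) every flight array lay below every ground array (against 4.28% and 6.87%), with a median difference of -0.30. Without flight replicates 1 and 3 the median was -0.17 and 5 of 17 (29.4%, against 3.97% of all genes) were lower at an unadjusted p under 0.05: Hmgcs1 (-0.38), Idi1 (-0.63), Lss (-0.32), Cyp51 (-0.50) and Sc5d (-0.305). Fdps (-0.19) and Nsdhl (-0.35) were not.

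**Figure D3:**
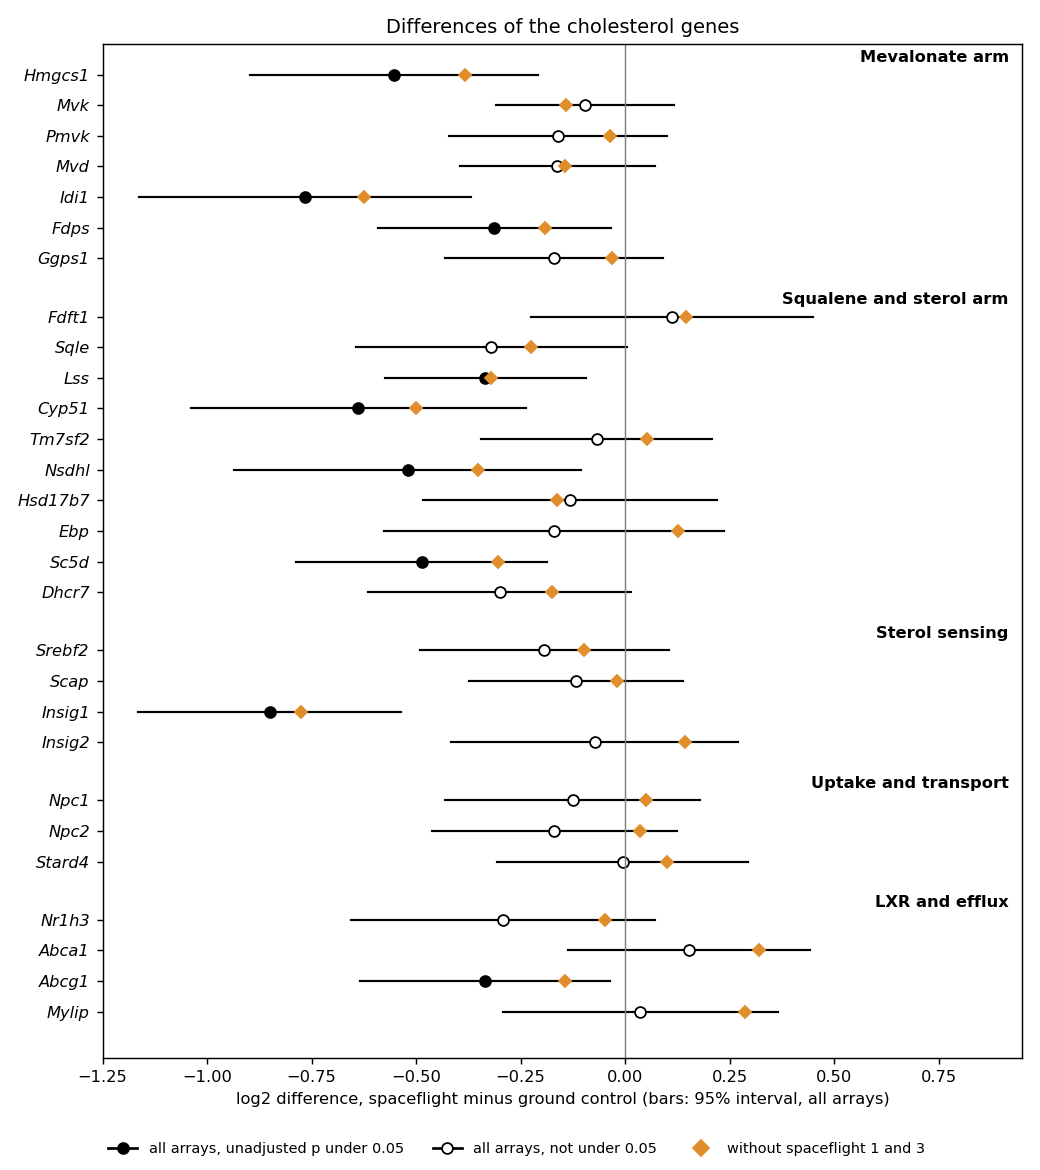
Log2 difference of each member, spaceflight minus ground control, with 95% intervals from the limma fit on all 8 arrays (filled circles have an unadjusted p under 0.05) and, as diamonds, the difference without spaceflight replicates 1 and 3. The diamonds of Insig1 (-0.78) and Idi1 (-0.63) stay far to the left, and those of Abca1 (0.32) and Mylip (0.29) lie to the right.

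Genes that move cholesterol inside the cell showed no separation. Npc1 and Npc2, which release lipoprotein cholesterol from late endosomes, differed by -0.13 ± 0.14 and -0.17 ± 0.13. Stard4, a soluble sterol carrier and a known SREBP2 target, differed by -0.0059 ± 0.14 (95% interval -0.31 to 0.29). None of the 3 was at an unadjusted p under 0.05, and without flight replicates 1 and 3 their differences were 0.049, 0.036 and 0.0996.

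The LXR genes did not share a direction. Abca1, which loads cholesterol onto lipid-poor acceptors, stood at 8.43, 8.70, 8.26 and 8.65 in flight and 8.31, 8.46, 8.52 and 8.14 on the ground. Flight replicates 2 and 4 lay above every ground array and replicates 1 and 3 did not, and the difference was 0.15 ± 0.13 (95% interval -0.14 to 0.44). Without replicates 1 and 3 it was 0.32 (limma adjusted p = 0.629). Mylip, the LXR-induced ligase, differed by 0.036 ± 0.15 with all arrays and by 0.29 without those 2. Abca1 and Mylip were the 2 members higher at an unadjusted limma p under 0.05 in that smaller fit.

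Abcg1, which exports cholesterol to larger lipoproteins, went the other way. It stood at 8.82, 9.10, 8.92 and 9.40 in flight and 9.31, 9.30, 9.56 and 9.41 on the ground. Flight replicate 4 lay within the ground range and the other 3 below it, and the difference was -0.34 ± 0.14 (limma adjusted p = 0.423, exact two-sided permutation p = 0.0857). Without flight replicates 1 and 3 it was -0.14 (limma adjusted p = 0.883). Nr1h3, which encodes LXRα, stood at 6.13, 6.53, 6.41 and 6.99 in flight and 6.72, 6.65, 6.99 and 6.86 on the ground. As for Abcg1, replicates 1 to 3 lay below the ground mice, while replicate 4 was at the upper end of them, and the difference was -0.29 ± 0.17 (95% interval -0.65 to 0.071). It was -0.16 without flight replicate 1, -0.45 without flight replicate 4 (limma adjusted p = 0.202) and -0.048 without replicates 1 and 3.

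Macrophages, which use the LXR genes heavily, varied between the flight lobes. Of 8 macrophage markers, 1 was lower at an unadjusted limma p under 0.05 (against 7.38% of all genes). Their summed linear level was 1380, 2570, 1780 and 3407 in flight replicates 1 to 4, against 2345 to 3046 on the ground. Nr1h3, Abcg1, Npc2, Ebp and Insig2 ranked the 4 flight mice in the same order as this sum, and none of these 5 did so among the ground mice. The summed level of 6 medullary epithelial markers (899.9, 1257, 965.8 and 1447 in flight, 1365 to 1708 on the ground) ranked the flight mice in that same order. There are 24 possible orders of 4 mice, and the share of all genes that follow this order was not computed. The part of macrophage or medullary content in these values was not tested.

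The 28 members also differed in which mouse was lowest. Spaceflight replicate 1 was the lowest of all 8 arrays for 19 members, replicate 3 for 6, replicates 2 and 4 for 1 each (Mvk and Lss), and ground replicate 4 for 1 (Abca1). Replicate 2 was the highest flight array for 16 members. Relative to the ground mean of each gene, the median over the 17 enzymes was -0.50, -0.13, -0.28 and -0.27 in flight replicates 1 to 4 and between -0.037 and 0.045 in the ground mice. All 4 flight mice thus lay below the ground mice for the enzymes. Genes in the same range of levels were also lower as a whole (median difference -0.12), and their medians in each array were not computed. For the 4 LXR genes the medians were -0.39, -0.058, -0.31 and 0.24, against -0.086 to 0.17 in the ground mice. Flight replicates 1 and 3 lay below the ground mice, replicate 2 among them and replicate 4 above.

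**Figure D4:**
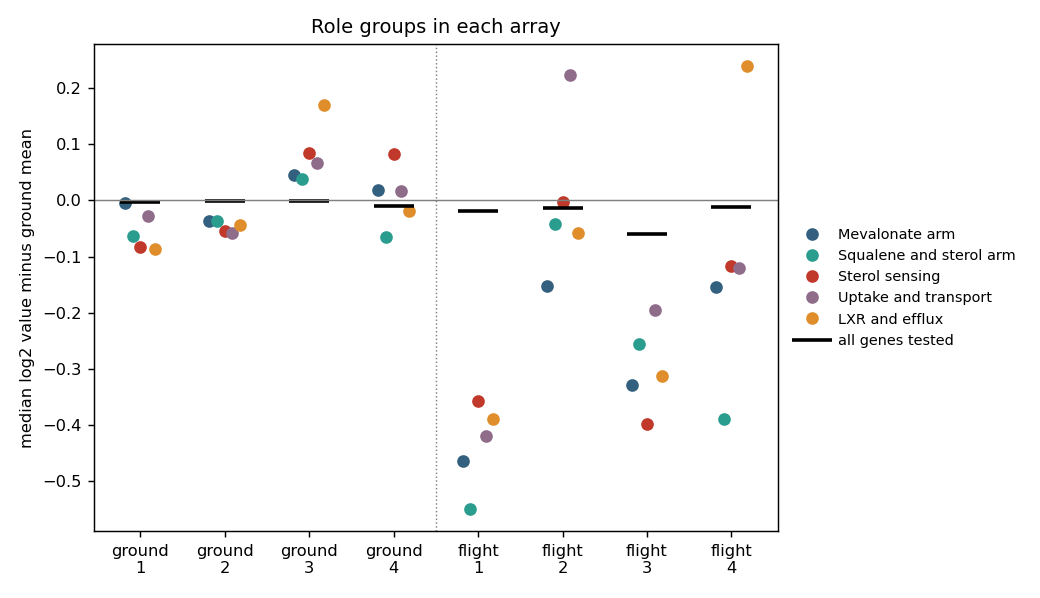
Median over each role group, in each array, of the log2 value minus the gene's ground-control mean; black bars show all genes tested. Flight replicate 1 is low in every group (squalene and sterol arm at -0.55), while in replicate 4 the LXR group is at 0.24 and the squalene and sterol arm at -0.39.

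Other cell types were set beside the enzymes. Their counts of lower markers stand against 7.38% of all genes, and 12.7% of genes in the members' range of levels. Of 5 liver transcripts, from an organ rich in cholesterol synthesis, the summed linear level was 169, 357, 629 and 1215 in ground replicates 1 to 4 and 129.6 to 168 in flight, and 2 of 5 were lower at an unadjusted p under 0.05. All 4 flight mice lay below the ground mice on this sum, narrowly so (at most 167.9 against at least 169.0). Of the 28 members, 0 ranked the flight mice in the order of the liver sum, and 1 (Pmvk) did so for the ground mice. Fat cell markers (7 of 8 measured) summed to 2393 in flight replicate 1, 4289 to 4625 in the other flight mice and 4145 to 5752 on the ground, with 3 of 7 lower at an unadjusted p under 0.05.

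Cell cycle genes (11 of 12 measured) summed to 9710, 8801, 6322 and 6056 in flight replicates 1 to 4 and to 7242 to 8680 on the ground. Flight replicates 1 and 2 lay above the ground mice and replicates 3 and 4 below. Of the 11, 3 were lower at an unadjusted p under 0.05 (against 7.38% of all genes). Cortical epithelial markers were lower at an unadjusted p under 0.05 in 4 of 7 (against 7.38% of all genes). Their sum was 4721 and 4773 in flight replicates 1 and 3, 6457 and 6265 in replicates 2 and 4, and 5867 to 6210 on the ground. Fdps, Ggps1, Tm7sf2, Sc5d and Npc1 (5 of 28 members) ranked the flight mice in the order of this sum. The endothelial and fibroblast sums share that flight order. Tm7sf2 and Insig1 (2 of 28) ranked the ground mice in the order of the cortical sum. In flight, the thymocyte and muscle sums each matched 3 of 28, and the fat and cell cycle sums 0. On the ground the muscle sum matched 6 of 28, and no other list more than 2. With 24 possible orders some matches arise by chance, and the share of all genes matching each sum was not computed. Medullary epithelial markers were lower in 2 of 6 and thymocyte markers in 2 of 8 (sums of 13480 to 15810 in flight and 15610 to 17060 on the ground). Muscle markers were lower in 1 of 6, and endothelial and fibroblast markers in 0 of 5 and 0 of 6. For each of these lists too the share of all genes was 7.38%. The part of any of these lists, liver and fat included, in the enzyme values was not tested.

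Beyond the 28 members, a list of 43 further pathway genes had 35 measured. In the limma fit 1 of them passed the adjusted threshold. This was Acly, which makes cytosolic acetyl-CoA, the starting material of both sterols and fatty acids, and it fell from 10.65 ± 0.23 to 9.42 ± 0.18 (SD, n = 4 each; log2 difference -1.23 ± 0.14, limma adjusted p = 0.00545). At an unadjusted p under 0.05, 7 of 35 were lower (20.0%, against 7.38% of all genes) and 2 were higher (against 3.43%), and the median difference over the 35 was -0.14. Without flight replicates 1 and 3, 3 of 35 were lower (8.57%, against 3.97%), 3 were higher (against 3.49%) and the median was -0.0038. The 3 lower there were Acly (-1.38), Acss2 (-0.95) and Srebf1 (-0.36). Acss2, which makes acetyl-CoA from acetate, stood at 7.81, 8.14, 8.17 and 8.24 in flight and 8.67, 9.14, 9.60 and 9.15 on the ground. Its difference was -1.05 ± 0.18 (limma adjusted p = 0.0666). Srebf1, the SREBP gene tied more to fatty acid synthesis, differed by -0.44 ± 0.14, and all its flight arrays (7.63 to 7.95) lay below its ground arrays (8.05 to 8.56).

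The other 4 that were lower were Erlin1 (-0.35), an endoplasmic reticulum protein tied to SREBP and Insig control, Tmem97 (-0.33), an endoplasmic reticulum protein that binds Npc1, Lima1 (-0.36) and Cyp7b1 (-0.30), an oxysterol hydroxylase. Without flight replicates 1 and 3 these were -0.12 for Erlin1, -0.19 for Tmem97, -0.097 for Lima1 and -0.15 for Cyp7b1, none at an unadjusted p under 0.05. The enzyme Msmo1, of the methyl-removing steps, differed by -0.51 ± 0.24 (limma adjusted p = 0.463), and by -0.24 without those 2 arrays. The 2 higher genes were Abcg8 (0.34), a sterol exporter of gut and liver, and Cyp27a1 (0.40), which makes the LXR ligand 27-hydroxycholesterol. Cyp27a1 stood at 6.89, 7.42, 7.18 and 7.59 in flight and 6.87, 6.88, 7.06 and 6.65 on the ground. Only flight replicate 1 overlapped the ground mice, and without replicates 1 and 3 the difference was 0.64 (limma adjusted p = 0.181). That of Abcg8 was then 0.19, and the other 2 higher genes in that fit were Nceh1 (0.34) and Lpcat3 (0.30).

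How the arrays were centred set the balance of all genes but turned the sign of none of the 9 members lower at an unadjusted p under 0.05. Of genes at an unadjusted p under 0.05, 68.3% were lower as deposited, 49.9% after centring arrays on the median, 52.9% after repeated quantile normalization and 25.2% after centring on the 75th percentile, which moved the median of all genes to 0.12. In that last setting 5 members were lower (against 2.61% of all genes), namely Insig1, Idi1, Hmgcs1, Cyp51 and Sc5d, and 1, Abca1, was higher (against 7.76%).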

How the data were processed

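The members, gene lists and alternatives were chosen with earlier results of these data known. The deposited values are log2 expression values, 1 array per mouse, made from 6 µg of total RNA per the labels' protocols. RMA, which corrects background, normalizes between arrays and summarises probes, and limma are named in the submitters' processing notes; versions, build and filters are not given in the sources used here. Of 35557 probe sets, the lowest unbroken run of identifiers (6614, none annotated) was left out as probable controls. Of the other 28943, 21789 had 1 gene, 1621 several and 5533 none; symbols were updated through Entrez identifiers to RefSeq GRCm38.p6 (21698 matched). Probe sets with several genes named none.

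Spaceflight minus ground control was fitted over 19938 genes with limma 3.58.1 in R 4.3.3 (lmFit, eBayes, two-sided, Benjamini-Hochberg adjustment, threshold 0.05). All members were named; of the further pathway genes, those at an unadjusted p under 0.05, with Msmo1, Nceh1 and Lpcat3 added after their values were seen. The fit was tested on simulated data. Alternatives were each array left out, spaceflight replicates 1 and 3 left out, other centring, quantile normalization, array weights, a variance trend, a replicate block, other use of probe sets and a filter on dim genes (mean under 6). P-values measure the spread between these mice, and 4 arrays per group limit the precision.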

Additional observations from a re-analysis of the deposited data

Results flagged for a closer look

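Of 56 groups of 4 mice checked (28 members in 2 conditions), 2 held a mouse far from the other 3, judged by its gap against the range of the group. Chance alone flags about 1 in 20 groups. Dhcr7 was at 7.92 in spaceflight replicate 2, where the other flight mice were at 7.35 to 7.42. Mvd was at 6.33 in ground-control replicate 2, where the other ground mice were at 6.58 to 6.62.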

How the results depend on the processing

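The difference of Insig1, Idi1, Hmgcs1, Cyp51 and Sc5d kept its sign and an unadjusted p under 0.05 in all 18 alternatives run. Centring on the 75th percentile gave 5 members lower (against 2.61% of all genes) and 1 higher (against 7.76%) at an unadjusted p under 0.05, and a median of -0.032. Repeated quantile normalization gave 1 higher (against 4.77%) and 1 with all flight arrays above, for which the share over all genes was not computed. Without spaceflight replicates 1 and 3 there were 2 higher (Abca1 and Mylip, against 3.49% of all genes). All remaining flight arrays lay above in 2 of the 28 (Insig2 and Abca1), against 7.45% of all genes. Leaving out genes with a mean under 6 gave 1 member at an adjusted p under 0.05 (Insig1), where fewer genes were tested. Leaving out 1 array gave 0 to 2 members at an adjusted p under 0.05 (2, Idi1 and Insig1, without spaceflight replicate 2). It gave 6 to 11 lower at an unadjusted p under 0.05 (against 4.47% to 11.1% of all genes) and medians from -0.24 to -0.13. Without overlap below were 7 to 11, for which the share over all genes was not computed. A lack of overlap is easier to reach with 1 array fewer, so these counts are not comparable with that of all arrays. Genes called in all were 16, against 6 with the 75th percentile, 10 with all probe sets tested, 25 without dim genes and 6 to 15 without 1 array.

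Signs turned only for small differences. Over the single-array omissions these were Tm7sf2 (-0.15 to 0.0034), Ebp (-0.34 to 0.016), Insig2 (-0.16 to 0.099), Stard4 (-0.11 to 0.057) and Mylip (-0.089 to 0.12). Without both spaceflight replicates 1 and 3, Tm7sf2 (0.051), Ebp (0.13), Insig2 (0.14), Npc1 (0.049), Npc2 (0.036) and Stard4 (0.0996) turned. Stard4 also turned with median centring (0.040). With the 75th percentile, Mvk (0.044), Tm7sf2 (0.071), Hsd17b7 (0.0070), Scap (0.022), Insig2 (0.066), Npc1 (0.013) and Stard4 (0.13) turned, and with quantile normalization Mvk (0.031), Tm7sf2 (0.016), Scap (0.020), Insig2 (0.064), Npc1 (0.0028) and Stard4 (0.12). The cause was not tested.

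The deviations of mice with the same number in both groups had correlations of 0.243, -0.296, -0.098 and 0.069. Mice of different numbers were not compared, so these values cannot decide whether the numbers pair mice, which the labels do not say. With the replicate number as a block, 10 members were lower at an unadjusted p under 0.05 (against 7.24% of all genes). In that fit 0 members passed the adjusted threshold and 20 genes were called in all.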
